A study of Mus musculus with 6 samples.

Results

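Transcripts of 10 surface proteins that are used to recognise fibroblasts, their progenitors and mesothelial cells were followed in mouse 3T3 fibroblasts with an NNMT construct. The 10 genes were Cd34, Pdpn, Thy1, Ly6a, Ly6c1, Dpp4, Pdgfra, Pdgfrb, Msln and Aqp1, out of 35275 gene rows in the deposited table. They were chosen by name as markers, with the difference between NNMT and control libraries of this same experiment already known, so their differences are given as a description and carry no test. All 10 were in the table, 9 had reads, and the same 9 passed the filter used for the fit across genes (an average level of 1 FPKM or more, which left 10882 genes).

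RNA sequencing was done on 3 libraries of cells with the NNMT construct and 3 libraries of cells with a control construct. NNMT is nicotinamide N-methyltransferase, an enzyme that uses S-adenosylmethionine, made from methionine, to methylate nicotinamide. Both groups were the 3T3 line, an immortalised mouse embryo fibroblast line, kept for 48 hours in DMEM that lacked methionine until it was brought to 10 µM, with 10% dialyzed FBS, before RNA was taken. The sources used here do not say whether the cells of a group were separate cultures or were given the construct separately, so p-values measure only the spread between these libraries, and a difference between 2 cell populations cannot be told apart from an effect of the construct. Neither the vector nor its promoter is named in the labels. One NNMT library carries no number in the table and is called the unnumbered NNMT library. The libraries held 35285063 to 39982078 reads in the NNMT group and 31622251 to 38878756 reads in the control group. Values are in FPKM, reads scaled by transcript length and by the reads of the library, and 1 read on a transcript of 1 kb was worth 0.02498 to 0.03158 FPKM. Nnmt itself had 15.7, 15.03 and 18.3 FPKM in the NNMT libraries, against 7.60, 5.25 and 6.51 FPKM in the control libraries. That is 16.3 ± 1.70 and 6.45 ± 1.18 FPKM (SD, n = 3 each), a level 2.53-fold higher in NNMT cells, and the libraries did not overlap.

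Surface markers of this kind are used to sort stromal cells because each is carried by some mesenchymal populations and not by others. CD34 and SCA-1 (the product of Ly6a) mark progenitor-like fibroblasts of the connective tissue around vessels and under epithelia, where DPP4 is also found, whereas podoplanin and THY1 are carried by many activated or reticular fibroblasts. Mesothelin and the water channel AQP1 are surface proteins of the mesothelium, the cell sheet that lines the body cavities. The PDGF receptors are tyrosine kinases through which fibroblasts and pericytes respond to platelet-derived growth factors.

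The 10 transcripts differed in direction. Of the 9 with reads, 5 were lower in every NNMT library than in every control library (Cd34, Msln, Aqp1, Thy1 and Pdpn), 3 were higher in every NNMT library (Ly6c1, Ly6a and Pdgfrb), and Pdgfra overlapped between the groups. Over all genes tested, 69.9% did not overlap between the groups, 37.2% being higher and 32.7% lower in NNMT libraries, so no reading is drawn from the members' count. The log2 difference, NNMT minus control on the log2(FPKM + 1) scale, had a median of -0.52 over the 9 members and of 0.03 over all genes tested. Its absolute size had a median of 0.86 over the 9 members and of 0.24 over all genes tested. On this scale 4 members were lower by at least 1 (Cd34, Msln, Aqp1 and Thy1) and none was higher by at least 1, sizes that 1.76% and 2.36% of all genes tested reached downward and upward.

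**Figure D1:**
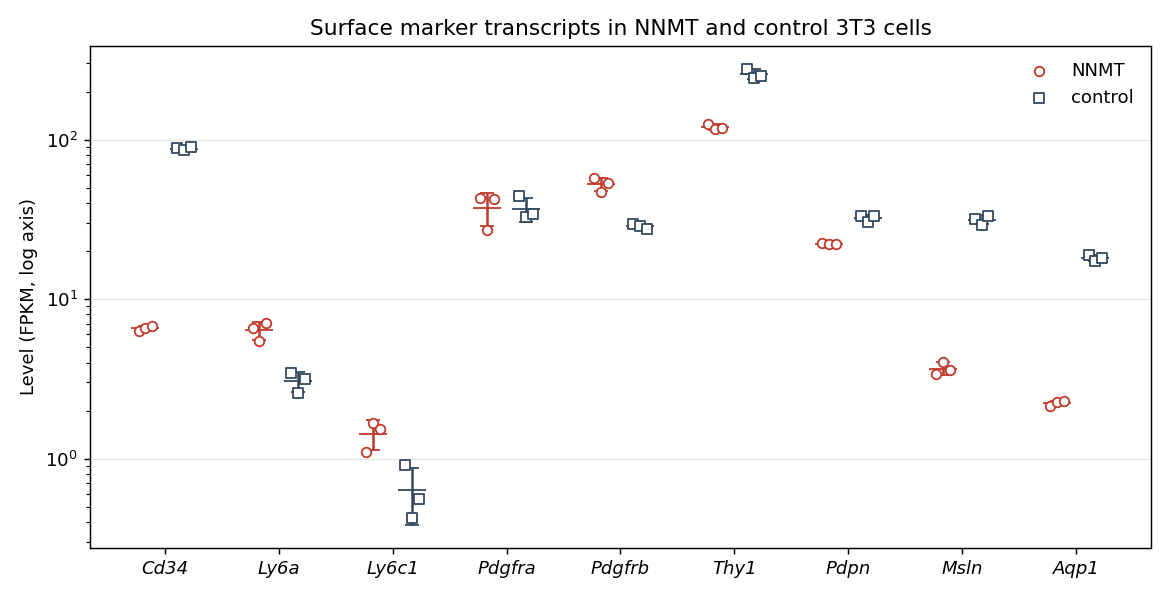
Level of each surface marker in each library, in FPKM, with NNMT libraries to the left of control libraries. Cd34 lies between 6.29 and 6.73 FPKM in the NNMT libraries and between 85.4 and 89.8 FPKM in the control libraries, and Pdgfra overlaps between the groups. Dpp4, at 0 in every library, is not drawn on the log axis.

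Cd34 differed most. It encodes a surface sialomucin known from haematopoietic stem cells, vascular endothelium and connective tissue fibroblasts (ENSMUSG00000016494, chr1:194938819-194961279, plus strand, mm10). Its level was 6.29, 6.60 and 6.73 FPKM in the NNMT libraries, against 88.3, 85.4 and 89.8 FPKM in the control libraries. Both groups were tight and far apart. The means were 6.54 ± 0.226 and 87.8 ± 2.26 FPKM (SD, n = 3 each), 13.4-fold lower in NNMT cells, or -3.56 on the log2(FPKM + 1) scale, from 1912 reads in the NNMT group and 24045 in the control group. Only 0.0643% of all genes tested had a larger absolute difference. By level in FPKM, 67.1% of the tested genes lay above Cd34 in NNMT cells and 6.92% in control cells. The promoter window that RefSeq places at the start of Cd34 is shown because this is the member that differed most, 250 bases before the start and 50 after it (GRCm38.p6, chr1:194938571-194938870, plus strand).
Cd34 promoter: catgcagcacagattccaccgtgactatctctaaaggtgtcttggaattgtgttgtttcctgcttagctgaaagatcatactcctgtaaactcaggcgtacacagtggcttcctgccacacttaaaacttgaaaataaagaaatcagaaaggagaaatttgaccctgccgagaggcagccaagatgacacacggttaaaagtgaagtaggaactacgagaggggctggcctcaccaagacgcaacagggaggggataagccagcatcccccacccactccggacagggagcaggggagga
It has no capitals because none of the 3 motifs searched on both strands was in it. The letters TATAAA, the core of a TATA box, were in 13.57% of 32544 such windows. The CCAAT box, searched by those letters, was in 37.36% of them, and a GC box, searched as GGGCGG, was in 35.88%. It holds 7 CpG dinucleotides, equal to the median of all windows.

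Pdpn encodes podoplanin, a mucin-type membrane glycoprotein that binds the platelet receptor CLEC-2 and links to the cortical actin through ezrin and moesin (ENSMUSG00000028583, chr4:143267431-143299564, minus strand). It had 22.4, 22.2 and 21.99 FPKM in the NNMT libraries, against 33.0, 30.5 and 33.0 FPKM in the control libraries. The NNMT libraries were nearly level with each other, with a coefficient of variation of 0.847%, and lay below all control libraries. The means, 22.2 ± 0.188 and 32.2 ± 1.41 FPKM, were 1.45-fold lower in NNMT cells (SD, n = 3 each), and 17.98% of all genes tested had a larger absolute difference than its -0.52.

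Thy1 encodes CD90, a small glycoprotein of the immunoglobulin superfamily held to the membrane by a glycosylphosphatidylinositol (GPI) anchor (ENSMUSG00000032011, chr9:44043384-44048579, plus strand). It was the most abundant of the 10, with 125.9, 115.7 and 118.9 FPKM in the NNMT libraries and 277.9, 241.5 and 251.4 FPKM in the control libraries. The highest NNMT library stood well below the lowest control library. Its mean was 2.14-fold lower in NNMT cells, a log2 difference of -1.09, and it stayed among the abundant transcripts, with 4.69% of the tested genes above it in NNMT cells and 1.96% in control cells. The proportion of Thy1 to Cd34 differed between the groups. The ratio of their FPKM was 20.0, 17.5 and 17.7 in the NNMT libraries, against 3.15, 2.83 and 2.80 in the control libraries.

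The Ly6 family members moved the other way. Ly6a encodes SCA-1, a GPI-anchored surface protein used in the mouse to isolate stem and progenitor cells (ENSMUSG00000075602, chr15:74994877-74998031, minus strand). It had 6.59, 5.42 and 7.09 FPKM in the NNMT libraries, against 3.45, 2.58 and 3.14 FPKM in the control libraries, with no overlap. The means were 6.37 ± 0.855 and 3.06 ± 0.438 FPKM (SD, n = 3 each), 2.08-fold higher in NNMT cells, or 0.86 on the log2(FPKM + 1) scale. Ly6c1, which encodes a Ly6C antigen of monocytes, endothelium and some fibroblasts (ENSMUSG00000079018, chr15:75044018-75048830, minus strand), was the lowest member with reads. It had 1.09, 1.68 and 1.53 FPKM in the NNMT libraries, against 0.905, 0.426 and 0.561 FPKM in the control libraries. The groups did not overlap, but the gap between the lowest NNMT and the highest control library was small beside the spread within each group. The means were 1.43 ± 0.303 and 0.631 ± 0.247 FPKM (SD, n = 3 each) from 134 and 55 reads, 2.27-fold higher in NNMT cells. Ly6c1 passed the filter of 1 FPKM only through its level in the NNMT libraries. The ratio of Ly6a to Ly6c1 was 6.02, 3.23 and 4.63 in the NNMT libraries and 3.81, 6.06 and 5.60 in the control libraries, so it overlapped.

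Ly6c1 is a near copy of its neighbour Ly6c2, which limits what its reads can be assigned to. The first 120 coding bases of both are shown from the GENCODE M21 transcripts (chromosome 15, minus strand), with capitals at the 6 bases where they differ.
Ly6c1 coding start: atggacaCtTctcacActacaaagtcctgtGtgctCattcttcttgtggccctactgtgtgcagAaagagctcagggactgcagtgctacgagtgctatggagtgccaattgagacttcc
Ly6c2 coding start: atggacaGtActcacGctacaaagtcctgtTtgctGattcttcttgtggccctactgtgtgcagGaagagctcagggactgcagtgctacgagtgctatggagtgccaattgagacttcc
Over the whole coding sequence 9 of 396 bases differed, an identity of 97.73%, while Ly6a and Ly6c1 had an identity of 81.98%. Of all 50-base stretches of the Ly6c1 transcript, 36.73% also occurred in transcripts of another gene, 31.7% in Ly6c2. The share was 10.04% for Ly6a, 1.858% for Cd34 and at most 0.2063% for the other members. Ly6c2 was listed at 0 in every library, and no label says how the authors treated reads that fit several genes, so the level of Ly6c1 is uncertain. RefSeq gives 2 overlapping windows for Ly6c1. The one shown holds 2 of the motifs (GRCm38.p6, chr15:75048788-75049087, minus strand, read 5′ to 3′). Capitals mark the letters TATAAA and CCAAT, and it holds 1 CpG dinucleotide. The position of these letters relative to the start was not part of the search. The other (chr15:75048614-75048913) holds none of the 3 motifs, like the Cd34 window, and 0 CpG dinucleotides.
Ly6c1 promoter: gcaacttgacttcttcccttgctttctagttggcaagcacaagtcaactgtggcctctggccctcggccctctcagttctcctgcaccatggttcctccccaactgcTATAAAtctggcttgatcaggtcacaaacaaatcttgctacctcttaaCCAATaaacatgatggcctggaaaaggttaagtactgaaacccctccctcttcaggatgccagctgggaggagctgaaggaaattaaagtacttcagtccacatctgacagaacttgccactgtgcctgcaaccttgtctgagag

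Dpp4 encodes dipeptidyl peptidase 4, or CD26, a membrane-bound protease that marks interstitial fibroblast progenitors (ENSMUSG00000035000, chr2:62330073-62412231, minus strand). It had 0 reads in all 6 libraries. For its longest transcript, a count of 0 allows a level of up to 0.0142 to 0.0161 FPKM in the NNMT libraries and 0.0146 to 0.0180 FPKM in the control libraries, taking 3 reads as the limit, and this covers counting error only. No difference was detectable at this depth. Its RefSeq promoter window holds the letters TATAAA, at a position not compared with the start, and 4 CpG dinucleotides.

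The PDGF receptors gave different pictures. Pdgfra, the receptor chain used as a general fibroblast marker (ENSMUSG00000029231, chr5:75152292-75198215, plus strand), had 43.01, 27.3 and 42.2 FPKM in the NNMT libraries, against 44.03, 32.5 and 34.0 FPKM in the control libraries. NNMT replicate 2 was the lowest of all 6 libraries and control replicate 1 the highest. The means were 37.5 ± 8.85 and 36.9 ± 6.26 FPKM (SD, n = 3 each), a log2 difference of 0.01, and the sign changed with the library left out, at -0.10 without the unnumbered NNMT library and 0.22 without NNMT replicate 2. The spread was wide for a transcript with 27704 and 25240 reads. Its coefficient of variation was 23.6% in NNMT and 16.99% in control libraries, and 1.87% and 3.71% of the tested genes had a higher one.

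Pdgfrb, the receptor chain typical of pericytes and of many fibroblasts (ENSMUSG00000024620, chr18:61045150-61085061, plus strand), had 57.2, 47.0 and 53.4 FPKM in the NNMT libraries, against 29.6, 28.7 and 27.3 FPKM in the control libraries. All NNMT libraries lay above all control libraries. The means were 52.5 ± 5.16 and 28.5 ± 1.16 FPKM (SD, n = 3 each), 1.84-fold higher in NNMT cells, a log2 difference of 0.85. Which receptor transcript had the higher FPKM therefore differed between the groups. Pdgfrb over Pdgfra was 1.33, 1.72 and 1.27 in the NNMT libraries, against 0.672, 0.883 and 0.803 in the control libraries, means of 1.44 ± 0.247 and 0.786 ± 0.107 (SD, n = 3 each). Thy1, Ly6a, Pdgfra and Pdgfrb, 4 of the 9 members with reads, shared a library order, lowest among NNMT libraries in replicate 2 and highest among control libraries in replicate 1. Over all genes tested, the deviations of these 2 libraries from their group means had a correlation of -0.381. The share of all genes with this order was not counted, so no reading is drawn from the members' count.

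**Figure D2:**
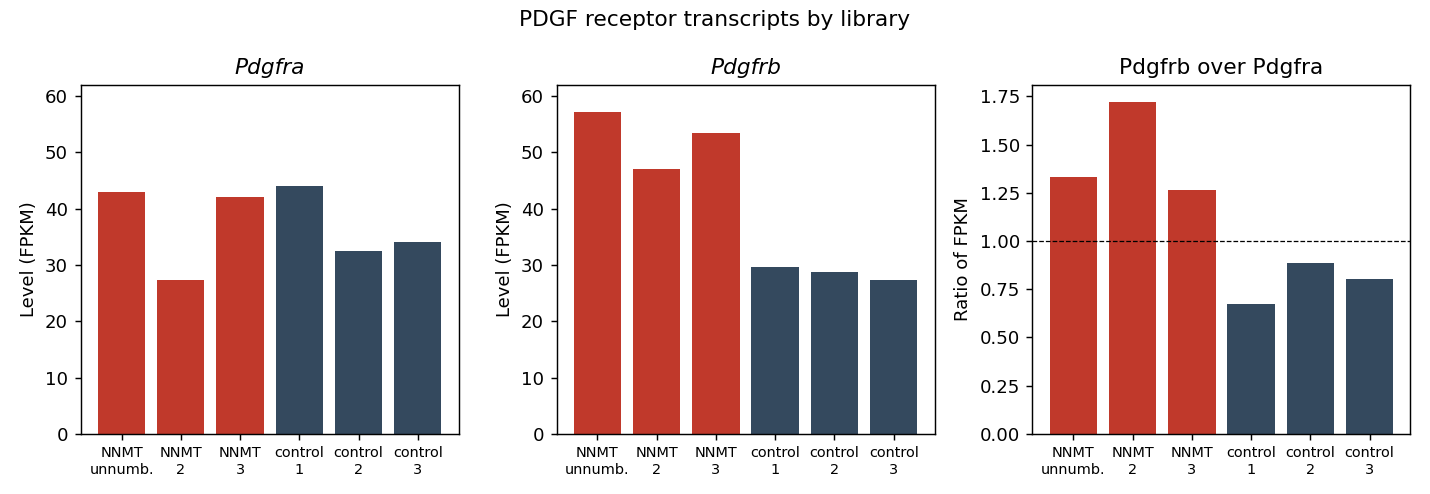
Level of Pdgfra and of Pdgfrb in FPKM and the ratio of Pdgfrb to Pdgfra in each library, NNMT libraries to the left of control libraries. Pdgfra overlaps between the groups, while the ratio is 1.27 to 1.72 in NNMT and 0.672 to 0.883 in control libraries, on either side of the dashed line at 1.

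Both mesothelial members were low in NNMT cells. Msln encodes mesothelin, a GPI-anchored glycoprotein that binds the mucin MUC16 (ENSMUSG00000063011, chr17:25748613-25754378, minus strand). It had 3.39, 4.04 and 3.57 FPKM in the NNMT libraries, against 31.9, 29.2 and 33.1 FPKM in the control libraries. The groups were far apart relative to their spread, 3.67 ± 0.337 and 31.4 ± 2.01 FPKM (SD, n = 3 each). Msln was 8.56-fold lower in NNMT cells, a log2 difference of -2.80, and 0.23% of all genes tested had a larger absolute one. Aqp1 encodes the water channel aquaporin 1 of red cells, endothelium, kidney tubule and mesothelium (ENSMUSG00000004655, chr6:55336432-55348555, plus strand). It had 2.15, 2.26 and 2.28 FPKM in the NNMT libraries, against 18.9, 17.3 and 18.06 FPKM in the control libraries, from 654 and 4966 reads. Here too the NNMT libraries stood close together, far below the control libraries. Aqp1 was 8.11-fold lower in NNMT cells, a log2 difference of -2.56, with 0.349% of all genes tested beyond it. The promoter window of Aqp1 is shown as that of a second strongly lower member (RefSeq, GRCm38.p6, chr6:55336049-55336348, plus strand), with its GC box in capitals.
Aqp1 promoter: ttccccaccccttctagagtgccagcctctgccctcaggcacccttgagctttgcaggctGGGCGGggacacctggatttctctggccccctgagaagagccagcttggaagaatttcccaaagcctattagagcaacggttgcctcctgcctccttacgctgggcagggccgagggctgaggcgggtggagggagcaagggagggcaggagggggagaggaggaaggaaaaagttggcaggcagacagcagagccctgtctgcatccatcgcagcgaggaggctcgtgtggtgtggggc
It holds 8 CpG dinucleotides and 62.67% G and C, against 50% in the Cd34 window and a median of 53% over all windows. RefSeq windows were matched for Cd34, Pdpn, Ly6c1, Pdgfra, Aqp1 and Dpp4, and those of Thy1, Ly6a and Msln were not matched.

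**Figure D3:**
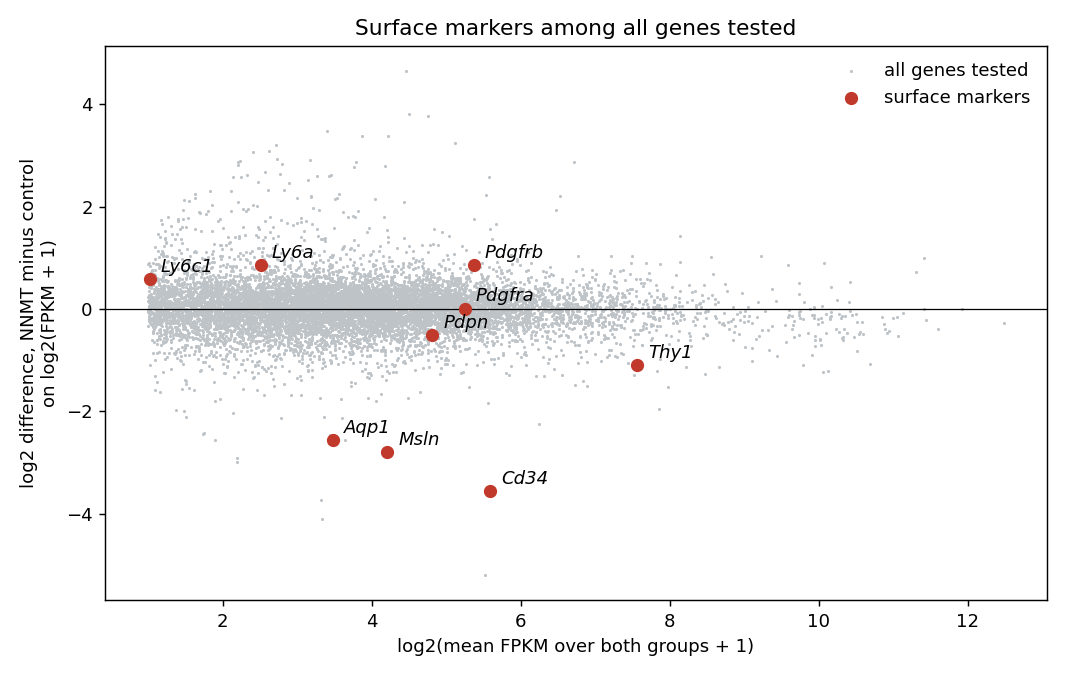
Mean level over both groups, as log2(mean FPKM + 1), against the log2 difference, NNMT minus control on the log2(FPKM + 1) scale, for all 10882 genes tested (grey) and the 9 members with reads (labelled). Cd34 at -3.56, Msln at -2.80 and Aqp1 at -2.56 lie at the lower edge of the cloud, Pdgfra at 0.01 lies on its midline, and Ly6a and Pdgfrb lie above it at 0.86 and 0.85.

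Other markers were counted to see what kind of cells the libraries represent. In the fit over all genes (limma, Benjamini-Hochberg adjusted p under 0.05), 35% of the genes tested were higher and 30.6% lower in NNMT libraries, 65.6% in all, which is the background for every list count given here. Members were left out of these counts. Of 13 tested fibroblast identity genes, 7 rose and 5 fell, with a median log2 difference of 0.30. Sparc, a collagen-binding matrix protein, rose to 1404 ± 24.3 FPKM in NNMT cells, against 749 ± 22.5 FPKM in control cells (limma adjusted p = 7.31e-08). Col1a1, a chain of type I collagen, rose to 3624 ± 359 FPKM, against 1815 ± 93.2 FPKM (limma adjusted p = 9.45e-07), and Col1a2 rose likewise (3175 ± 325 against 1914 ± 65.2 FPKM, limma adjusted p = 7.62e-06). The intermediate filament gene Vim fell to 1044 ± 40.3 FPKM, against 1515 ± 6.04 FPKM (limma adjusted p = 2.76e-06). The other genes of the list that fell were S100a4, Lum, Twist2 and Prrx1. Tcf21 was listed at 0 in every library, and Fap was at 0.0207 FPKM in NNMT and 0 FPKM in control cells. The list's summed level was 12157 to 13524 FPKM in NNMT libraries and 9116 to 9376 FPKM in control libraries. A few abundant genes such as Col1a1 and Col1a2 made up most of this sum, so it shows only that these were abundant in both groups. Some markers of other cell types were listed at 0 and others had reads. Epcam, Krt18, Cldn4 and Grhl2 of epithelium, Tie1, Emcn, Cldn5, Sox17 and Prox1 of endothelium, and Cd3e, Spi1, Kit and Tyrobp of blood cells were listed at 0 in all 6 libraries. Among the genes of the same lists with reads were Flt1, Egfl7, Cd68, Csf1r and Krt14, given below. In bulk libraries such as these, fewer cells of a kind and less RNA per cell cannot be told apart.

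Universal and adventitial fibroblast genes, the company in which Cd34, Ly6a and Dpp4 are usually found, were mixed. Of 9 tested genes outside the members 5 rose and 2 fell, with a median log2 difference of 0.35. Mfap5, a microfibril protein, reached 30.7 ± 1.36 FPKM in NNMT cells, against 3.60 ± 0.430 FPKM in control cells (8.53-fold higher, limma adjusted p = 1.08e-09). Dpt, which encodes the matrix protein dermatopontin, reached 7.09 ± 1.57 FPKM, against 0.138 ± 0.0505 FPKM (51.5-fold higher, limma adjusted p = 5.23e-08), from 1305 and 23 reads. Only its level in the NNMT libraries took Dpt past the filter of 1 FPKM. Sema3c, a secreted semaphorin, rose 8.89-fold, to 9.13 ± 0.870 FPKM, against 1.03 ± 0.0263 FPKM (limma adjusted p = 4.50e-09). The atypical chemokine receptor Ackr3 fell to 2.35 ± 0.454 FPKM, against 17.4 ± 0.286 FPKM (limma adjusted p = 8.55e-09). Markers that share a cell type label with Cd34 were thus found on both sides, and Cd34 was on the side of Ackr3.

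Of 17 tested genes of a mesenchymal stromal surface panel, 9 rose and 6 fell, with a median log2 difference of 0.14. The aminopeptidase gene Anpep (CD13) rose 8.87-fold, to 4.38 ± 0.334 FPKM, against 0.494 ± 0.0738 FPKM in control cells (limma adjusted p = 2.65e-08). Anpep too passed the filter of 1 FPKM only through the NNMT libraries. Cd248, endosialin, rose to 198 ± 21.6 FPKM, against 95.7 ± 7.56 FPKM (limma adjusted p = 1.94e-06). The adhesion molecule genes Alcam and Mcam fell. Alcam was at 7.45 ± 1.38 FPKM, against 25.6 ± 1.30 FPKM in control cells, and Mcam at 1.47 ± 0.0432 FPKM, against 3.61 ± 0.232 FPKM (limma adjusted p = 3.07e-07 and 1.40e-06).

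Mesothelial markers other than the members were nearly all low. Of 19 in the table only Bnc1 and Gata4, both transcription factors, passed the filter, and they went opposite ways. Bnc1 fell to 3.58 ± 0.221 FPKM in NNMT cells, against 11.01 ± 0.194 FPKM in control cells (limma adjusted p = 2.65e-08). Gata4 rose to 10.3 ± 0.992 FPKM, against 5.66 ± 0.312 FPKM (limma adjusted p = 7.65e-06). Krt19, Krt18, Calb2 and Aldh1a2 were listed at 0 in every library, and the list's summed level without the members was 13.6 to 15.3 FPKM in NNMT and 16.8 to 17.4 FPKM in control libraries. The control cells therefore carried Msln and Aqp1 transcripts without most of the other transcripts of a mesothelial cell, and the part of mesothelial cells in the difference was not tested.

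Pericyte and mural genes, with which Pdgfrb is grouped, had 5 tested members of which 2 rose and 3 fell. Notch3, a Notch receptor of mural cells, was at 3.10 ± 0.832 FPKM in NNMT and 0.203 ± 0.0760 FPKM in control cells (15.3-fold higher, limma adjusted p = 1.98e-06). It passed the filter of 1 FPKM only through its level in the NNMT libraries. The smooth muscle actin gene Acta2 rose to 1004 ± 10.3 FPKM, against 705 ± 11.1 FPKM (limma adjusted p = 2.31e-06), while Tagln, an actin-binding protein of smooth muscle, fell to 145 ± 4.53 FPKM, against 180 ± 7.41 FPKM (limma adjusted p = 0.000307). The other genes of this list that fell were Mcam, given above, and Cspg4, and Kcnj8 was listed at 0. Of 16 endothelial genes 2 were tested and both rose: Flt1, a VEGF receptor, at 3.22 ± 0.0751 against 1.72 ± 0.142 FPKM (limma adjusted p = 1.69e-05), and Egfl7, a secreted endothelial factor, at 2.18 ± 0.0986 against 1.61 ± 0.335 FPKM (limma adjusted p = 0.0173). The call of Egfl7 was lost without control replicate 2, control replicate 3 or NNMT replicate 3. Of the blood cell list only Cd68 was tested, at 1.397 ± 0.334 FPKM in NNMT and 1.80 ± 0.285 FPKM in control cells, and it did not pass. Csf1r, below the filter and not tested, was at 0.194 ± 0.0715 FPKM in NNMT and 0.761 ± 0.0486 FPKM in control cells, without overlap. No gene of the epithelial list was tested, and its sum was at most 0.403 FPKM in NNMT and 1.18 FPKM in control libraries. Krt14, its most abundant gene, was at 0.308 ± 0.0682 FPKM in NNMT and 0.719 ± 0.347 FPKM in control cells and overlapped. Krt8 was at 0 FPKM in NNMT and 0.0914 ± 0.0459 FPKM in control cells.

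**Figure D4:**
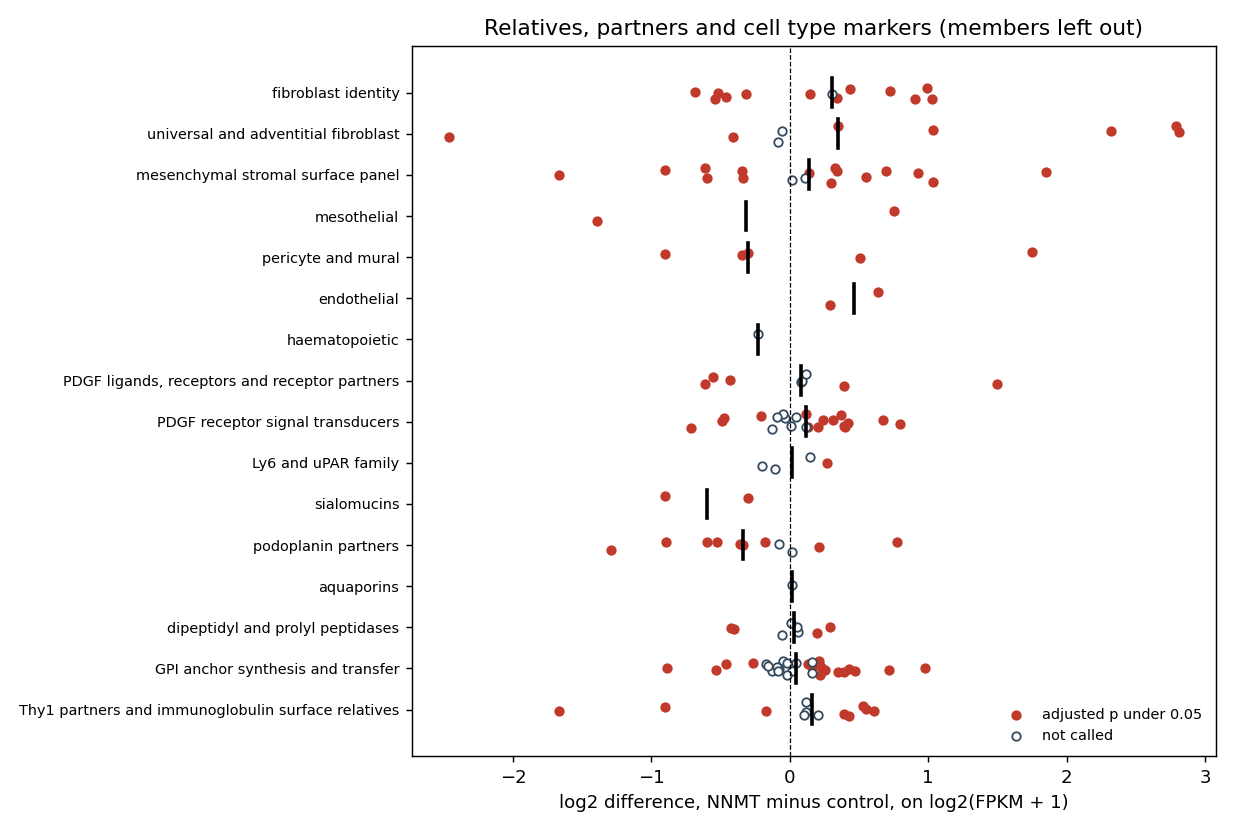
Log2 difference, NNMT minus control on the log2(FPKM + 1) scale, of each tested gene in the lists of relatives, partners and cell type markers, with 1 row for each list and members left out. Most lists hold genes on both sides of 0; podoplanin partners have a median of -0.34 with 7 of 11 lower, and fibroblast identity genes have a median of 0.30 with 7 of 13 higher.

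Genes that work with the PDGF receptors were examined next. Among 8 tested ligands, processing proteases and co-receptors, 2 rose and 3 fell. Plat, the tissue plasminogen activator that cleaves PDGF-C into its active form, rose to 44.4 ± 2.78 FPKM in NNMT cells, against 15.1 ± 1.41 FPKM in control cells (limma adjusted p = 6.40e-08). The co-receptor Nrp1 fell to 28.5 ± 1.07 FPKM, against 42.4 ± 1.12 FPKM (limma adjusted p = 3.76e-06), and the proprotein convertase Furin fell to 21.4 ± 1.67 FPKM, against 29.2 ± 0.993 FPKM (limma adjusted p = 0.00011). Pdgfrl, a receptor-like protein, rose to 14.3 ± 0.952 FPKM, against 10.6 ± 0.683 FPKM (limma adjusted p = 0.000308). The ligand genes Pdgfa and Pdgfc were at 21.7 ± 1.52 and 25.0 ± 1.84 FPKM in NNMT cells, against 20.4 ± 1.32 and 23.4 ± 0.671 FPKM in control cells, and did not pass (limma adjusted p = 0.282 and 0.222). Of 22 tested signal transducers downstream of the receptors, 11 rose and 4 fell, with a median log2 difference of 0.12. Rasa1, a GTPase-activating protein for RAS that docks on the beta receptor, fell to 17.3 ± 0.599 FPKM, against 29.1 ± 1.20 FPKM (limma adjusted p = 1.02e-06). The ubiquitin ligase gene Cblb rose to 8.55 ± 0.368 FPKM, against 4.50 ± 0.312 FPKM (limma adjusted p = 1.93e-06). The PI3-kinase subunit gene Pik3r1 rose to 18.3 ± 1.55 FPKM, against 11.1 ± 0.532 FPKM, and the phospholipase gene Plcg1 to 32.8 ± 1.43 FPKM, against 24.2 ± 0.146 FPKM (limma adjusted p = 9.24e-06 and 2.75e-05).

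Of 11 tested podoplanin partners 7 fell and 2 rose, with a median log2 difference of -0.34. All 3 genes of the ezrin, radixin and moesin family, which tie membrane proteins to actin, fell. Msn was at 105 ± 7.96 FPKM in NNMT cells, against 259 ± 17.4 FPKM in control cells (limma adjusted p = 1.18e-07). Ezr was at 11.7 ± 0.644 FPKM, against 22.6 ± 0.830 FPKM (limma adjusted p = 3.60e-07). Rdx, chosen for mention after its values were seen, was at 49.5 ± 1.64 FPKM, against 63.9 ± 3.31 FPKM (limma adjusted p = 0.000144). Arhgef1, a guanine nucleotide exchange factor, also fell (22.02 ± 0.793 against 32.2 ± 0.456 FPKM, limma adjusted p = 4.46e-06), and the galectin gene Lgals8 rose (24.4 ± 0.812 against 13.9 ± 0.271 FPKM, limma adjusted p = 3.82e-07). In a list of sialomucins and other heavily glycosylated surface proteins 2 genes outside the members were tested, and both fell, with a median log2 difference of -0.60. They were the sialomucin gene Cd164, at 59.2 ± 3.24 FPKM in NNMT cells, against 73.0 ± 0.742 FPKM in control cells (limma adjusted p = 0.000405), and Mcam, given above, which belongs to the immunoglobulin superfamily. The close relatives of Cd34 were near 0 and not tested. Podxl was at 0.00990 ± 0.00863 FPKM in NNMT and 0.00523 ± 0.00548 FPKM in control cells, and Podxl2 at 0.00809 ± 0.00705 and 0.0308 ± 0.00855 FPKM.

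Close relatives of the Ly6 members were mostly silent or did not pass the test. Of the 37 other genes of the Ly6 and uPAR family with a row, 19 were at 0 and 4 were tested. The most abundant, Ly6e and the urokinase receptor Plaur, did not pass. Ly6e was at 55.9 ± 3.09 FPKM in NNMT and 50.6 ± 3.51 FPKM in control cells, and Plaur at 51.6 ± 7.67 and 59.1 ± 5.56 FPKM (limma adjusted p = 0.0606 and 0.0955). Cd59a, a complement inhibitor, was the only call, at 3.10 ± 0.346 FPKM in NNMT and 2.40 ± 0.218 FPKM in control cells (limma adjusted p = 0.0137), and the call was lost without control replicate 2 or NNMT replicate 3. Aqp5, the only other aquaporin tested, was at 1.64 ± 0.241 FPKM in NNMT and 1.61 ± 0.0918 FPKM in control cells and did not pass (limma adjusted p = 0.88). Aqp11, below the filter, was at 1.12 ± 0.0328 FPKM in NNMT and 0.577 ± 0.0838 FPKM in control cells, without overlap. The summed level of the aquaporins without Aqp1 was 2.84 to 3.40 FPKM in NNMT and 2.10 to 2.48 FPKM in control libraries. Among 8 tested genes of a list of dipeptidyl and prolyl peptidases, which also held the adenosine deaminase gene Ada, 2 rose and 2 fell. Dpp9 and Prcp fell to 31.6 ± 2.10 and 14.8 ± 1.29 FPKM, against 42.6 ± 1.86 and 19.9 ± 0.867 FPKM in control cells (limma adjusted p = 0.000108 and 0.000322). Dpp7 and Dpp8 rose to 10.9 ± 0.319 and 22.7 ± 1.10 FPKM, against 8.74 ± 0.478 and 19.7 ± 0.653 FPKM (limma adjusted p = 0.000829 and 0.00653).

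Thy1, Ly6a, Ly6c1 and Msln all carry a GPI anchor, and they lay on both sides, Ly6a and Ly6c1 higher and Thy1 and Msln lower in NNMT libraries. Of 29 tested genes that build or attach the anchor, 12 rose and 4 fell, with a median log2 difference of 0.05. Pigp, a subunit of the enzyme that starts the anchor, rose to 14.9 ± 0.342 FPKM in NNMT cells, against 7.06 ± 0.599 FPKM in control cells (limma adjusted p = 4.73e-07), whereas Piga, the catalytic subunit of the same enzyme, fell to 1.74 ± 0.223 FPKM, against 4.08 ± 0.349 FPKM (limma adjusted p = 6.54e-06). Pigk and Gpaa1, subunits of the transamidase that attaches it, rose to 24.1 ± 1.12 and 32.8 ± 1.51 FPKM, against 14.3 ± 0.266 and 24.8 ± 0.526 FPKM (limma adjusted p = 8.97e-07 and 5.66e-05). Of 12 tested Thy1 partners and immunoglobulin relatives 5 rose and 3 fell. Besides Alcam and Mcam, the integrin chain gene Itgb3 rose to 7.13 ± 0.400 FPKM, against 4.34 ± 0.138 FPKM, and the immunoglobulin family gene Cd276 to 31.8 ± 1.63 FPKM, against 21.4 ± 0.512 FPKM (limma adjusted p = 9.68e-06 and 6.71e-06).

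The members lie on 9 chromosomes, and only Ly6a and Ly6c1 are neighbours. Within 500 kb of the start of Cd34 2 genes were tested and both rose. Plxna2, a semaphorin receptor, was at 8.72 FPKM in NNMT and 2.64 FPKM in control cells, and Cr1l, a complement regulator, at 25.1 and 20.0 FPKM (limma adjusted p = 3.64e-08 and 0.00102). The starts of Plxna2 and Cr1l lie 320.6 and 192.8 kb from that of Cd34. On this chromosome 23.2% of the tested genes were higher and 41.2% lower. Whether the level of Cd34 is tied to its region was not tested. The 2 tested neighbours of Pdpn, Prdm2 and Pramef8, both fell, on a chromosome where 56.7% of the tested genes were lower and the median log2 difference was -0.23. Around Msln 13 of 27 tested genes fell and 4 rose, on a chromosome where 49.4% of the tested genes were lower. Around Thy1 7 of 20 rose and 6 fell, on a chromosome where 47.9% of the tested genes were higher and 16.9% lower. The nearest tested neighbour of Thy1, the deubiquitinase gene Usp2, fell to 2.78 FPKM, against 9.44 FPKM (limma adjusted p = 1.42e-07). Near Ly6a and Ly6c1 3 of 5 tested genes rose and none fell, against 45.8% higher and 15.8% lower on their chromosome. Near Pdgfrb 2 of 9 rose and 4 fell, against 32.4% higher and 28.1% lower on its chromosome. Near Aqp1 1 of 4 rose and 1 fell, against 38.9% higher and 22.1% lower on its chromosome. The gene near Aqp1 that rose was Mindy4, whose call was lost without control replicate 3 or NNMT replicate 3. Chic2, the only tested gene near Pdgfra, did not pass, and no gene near Dpp4 was tested. No tested gene overlapped a member.

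Among 7844 protein-coding genes averaging 5 FPKM or more, those whose log2 levels ran most like Thy1 over the 6 libraries were Lrrc42, Wasf2 and Scarb1, each with a Pearson r that rounds to 1.00. For Pdgfrb they were Endov, Tln2 and Gata4, each with an r that rounds to 1.00. Such values follow mainly from the difference between the groups, and 1165 genes had an r above 0.95 with Thy1 and 1298 with Pdgfrb.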

How the data were processed

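RNA was sequenced from 3 NNMT and 3 control libraries. Per the labels' protocols RNA was column-purified and libraries were made with NEB chemistry. CASAVA, STAR 2.5 and mm10 are named, per the submitters' processing notes. No source used here names the read counter, annotation release or strand setting. A single table was deposited, whose header has no unit. The deposited values behave as FPKM: whole reads were recovered from their steps for 20528 of 20528 genes above 0 (100%, tolerance 0.01), and the steps matched the longest GENCODE M21 transcript for 14597 genes (71.1%). Recovered reads are the authors' values divided by the step, and served for depth, floors and one alternative. Because the unit is FPKM, limma replaced a count test as the main fit.

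Log2(FPKM + 1) was fitted with limma 3.58.1 in R 4.3.3 (mean-variance trend, robust moderation, two-sided, no block) over 10882 genes averaging 1 FPKM or more, and p-values were adjusted by Benjamini-Hochberg over all of them at 0.05. Fold changes of low genes are understated on this scale. Ratios of mean FPKM are given for the members whose groups did not overlap, for Nnmt and for some genes of the lists. Gene IDs were paired with GENCODE M21 symbols for 34490 of 35275 rows, and 2 of 283 listed genes were not matched to a row. The members and lists were chosen with earlier results of these data known. Named from each list were up to 4 tested genes outside the members with the smallest adjusted p among those called without overlap, or up to 2 with the highest level where fewer than 2 passed. Up to 2 nearest tested neighbours were considered for each member, and 3 genes by likeness for the most abundant member in each direction. Alternatives were 2 other scalings, pseudocounts of 0.1 and 10, no filter and an average of 5 FPKM or more, other moderation, limma-voom on recovered reads, an adjusted p of 0.01, leaving out each library, and a replicate block. Promoter windows came from RefSeq (GRCm38.p6) and coding bases from GENCODE M21. The sequences of Pdgfrb are not reported here.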

Additional observations from a re-analysis of the deposited data

How the results depend on the processing

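Over all genes, 3806 were called higher and 3334 lower in NNMT libraries, and under every alternative run both counts stayed within 1.5 times of these values. Leaving out each library in turn gave 3366 to 3828 higher and 2960 to 3368 lower. Quantile normalization gave 3607 and 3565, and scaling by medians of ratios gave 3565 and 3609. The replicate block, over the libraries numbered 2 and 3 in both groups, gave 3903 higher and 3207 lower. The deviations of same-numbered libraries had correlations of 0.212 and 0.110. The unnumbered NNMT library was not paired, because its column carries no number. Its correlation with control replicate 1 was 0.314, and that of NNMT replicate 2 with control replicate 3, which differ in number, was 0.212. Other pairs were negative. The largest in absolute size was -0.381, between NNMT replicate 2 and control replicate 1, and the unnumbered NNMT library had -0.308 with control replicate 3. Whether the numbers mark a shared culture is not stated in the labels, so the fit without the block was kept.

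The sign of 8 of 9 members was the same under every alternative that gave a value. Ly6c1 had a value in 11 of 14, since it fell below the filter without NNMT replicate 2, without NNMT replicate 3 and at an average of 5 FPKM, and Ly6a in 13. Leaving out 1 library moved Cd34 between -3.58 and -3.53, Msln between -2.85 and -2.75, Aqp1 between -2.59 and -2.53, Ly6a between 0.77 and 0.96, and Pdgfrb between 0.79 and 0.93. Pdgfra kept its sign in 8 of 14 alternatives. A pseudocount of 10, which by construction shrinks low genes, gave -2.56 for Cd34, -1.20 for Aqp1, -1.60 for Msln, 0.33 for Ly6a and 0.11 for Ly6c1, and limma-voom on recovered reads gave -3.75 for Cd34, -3.10 for Msln, -3.02 for Aqp1 and 1.21 for Ly6c1, which has the fewest reads. Of 578 recomputed list counts 551 stayed within 1.5 times of their value and 27 moved. The 551 include counts of 0 that stayed at 0, which say little about stability. Among the called genes named from the lists, Egfl7 and Cd59a lost their call without some single libraries.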

Other observations

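The genes in this section were chosen after their values were seen. Of 20 tested genes with a CD symbol, Cd34 left out, 9 rose and 4 fell in NNMT libraries, with a median log2 difference of 0.17. Over all genes tested 35% were higher and 30.6% lower, so no reading is drawn from this count. Cd24a, a GPI-anchored sialoglycoprotein, rose to 45.8 ± 4.97 FPKM in NNMT cells, against 21.1 ± 1.69 FPKM in control cells (limma adjusted p = 1.59e-06). Cd47, the ligand of the macrophage receptor SIRP-alpha, rose to 18.7 ± 0.648 FPKM, against 11.9 ± 0.947 FPKM (limma adjusted p = 1.01e-05). The hyaluronan receptor gene Cd44 fell to 25.2 ± 2.58 FPKM, against 38.7 ± 1.97 FPKM (limma adjusted p = 3.66e-05), and the endotoxin co-receptor gene Cd14 to 2.09 ± 0.420 FPKM, against 4.48 ± 0.299 FPKM (limma adjusted p = 3.14e-05).

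Of 7844 protein-coding genes averaging 5 FPKM or more, 8 others varied at least as much as Pdgfra within both groups. The immunoglobulin-superfamily gene Islr and the complement protease gene C1s1 had the library order of Pdgfra, lowest among NNMT libraries in replicate 2 and highest among control libraries in replicate 1. Islr had 18.2, 8.95 and 17.8 FPKM in the NNMT libraries, against 1.399, 0.715 and 1.05 FPKM in the control libraries. Of the 8, 4 had the opposite order, highest among NNMT libraries in replicate 2 and lowest among control libraries in replicate 1: Ccn2, Tnnt2, Prl2c2 and Ctsw. Ccn2, a secreted matricellular protein, had 21.1, 42.6 and 23.2 FPKM in the NNMT libraries, against 27.5, 47.8 and 37.9 FPKM in the control libraries. These orders are a description of 6 libraries, and nothing was tested.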
